A study of Mus musculus with 6 samples.

Results

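The glutathione and thioredoxin systems were followed through 66 protein-coding genes of the 23413 genes in the table. They were taken by gene name, a choice made with earlier results of these data known. They are the glutathione S-transferases, glutathione peroxidases, peroxiredoxins, thioredoxins, glutaredoxins and superoxide dismutases. To these were added Gclc, Gclm, Gss, Gsr, Cat, Nqo1, Nfe2l2, Keap1 and Srxn1. Messenger RNA came from blood-forming (hematopoietic) stem cells of WT mice, taken from bone marrow and sorted into an F4/80 negative and an F4/80 positive group with 3 libraries each, from 2000 to 5000 cells per library. F4/80, encoded by Adgre1, is a surface protein used to mark macrophages, and by its title the study asks how trogocytosis, in which a cell takes up pieces of a neighbour's membrane, bears on the stem cell pool through the receptor c-Kit. The labels name no treatment, age or further gates of the sort, and both groups share the WT genotype. Adgre1 itself had a log2 fold change of 3.79, the direction of the sort.

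As background, cells keep protein thiols reduced through parallel chains that both draw electrons from NADPH. Glutathione is built by glutamate-cysteine ligase (Gclc and Gclm) and glutathione synthetase (Gss), spent by peroxidases and transferases, and restored by glutathione reductase (Gsr). Thioredoxin passes electrons from its reductase to most peroxiredoxins, and Txnip binds and inhibits thioredoxin. The transcription factor NRF2 (Nfe2l2), held in check by KEAP1, drives many of these genes under oxidative stress. Low levels of reactive oxygen are a known feature of quiescent stem cells in marrow.

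Total counts were between 18637526 and 21042379 per library. Stem cell markers were present in every library, with 8 of 12 fixed stem cell genes lower and 0 higher in the positive group (edgeR; 0 higher also by DESeq2, limma-voom and at an unadjusted p below 0.05) and a summed level of 3119 to 3424 CPM (counts scaled to a common library size) in positive and 4417 to 5336 CPM in negative libraries. Other cell types' markers differed as well. Of 18 macrophage genes 16 could be tested and all 16 were higher in edgeR, with a summed level of 483 to 1030 CPM in positive and 127 to 139 CPM in negative libraries. The calls of Siglec1, Mertk and Fcgr1 were kept in only 2, 1 and 3 of the 6 fits that left out 1 library. Siglec1 was also not called by DESeq2 or limma-voom, nor Mertk with no composition factor. The macrophage gene Marco, too low to test, had 0 counts in all 3 negative libraries and 9, 9 and 1 counts in the positive ones. Siglec1 and Vsig4 had 0 counts in at least 1 negative library. Of 9 tested megakaryocyte genes 7 were higher (1488 to 2074 against 596 to 713 CPM summed). Among them, Itgb3 kept its call in only 1 of those 6 fits, and not by DESeq2 or with no composition factor. The part of these cells' RNA in the redox results was not tested, and in bulk RNA fewer cells of a type and less RNA per cell cannot be told apart.

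Of the 66 redox genes 62 passed the filter on low counts, and 10 of them differed between the groups: 2 were higher and 8 lower in F4/80 positive cells. The lower genes were Txnip, Srxn1, Gstm1, Gsta4, Gstm6, Mgst1, Glrx and Txndc16, and the higher ones Prdx1 and Txn1. A gene was called at a Benjamini-Hochberg adjusted p below 0.05 over all 14451 tested genes in edgeR's quasi-likelihood test. The members called made up 16.1% of those tested, against 20.5% of all tested genes. By direction the shares were 3.23% higher against a background of 9.65%, and 12.9% lower against 10.9%. The median log2 fold change (positive over negative) was -0.06 over the 62 members and -0.03 over all tested genes. The members' share was no higher than that of all tested genes, so the count itself is no feature of the group. The 3 positive and 3 negative libraries did not overlap for 25 of the 62 (40.3%, against 40.6% of all tested genes), among them all 10 called. Gsta3, Gstm3, Gstt4 and Txndc2 were too low to test, with at most 7 counts in any library.

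**Figure D1:**
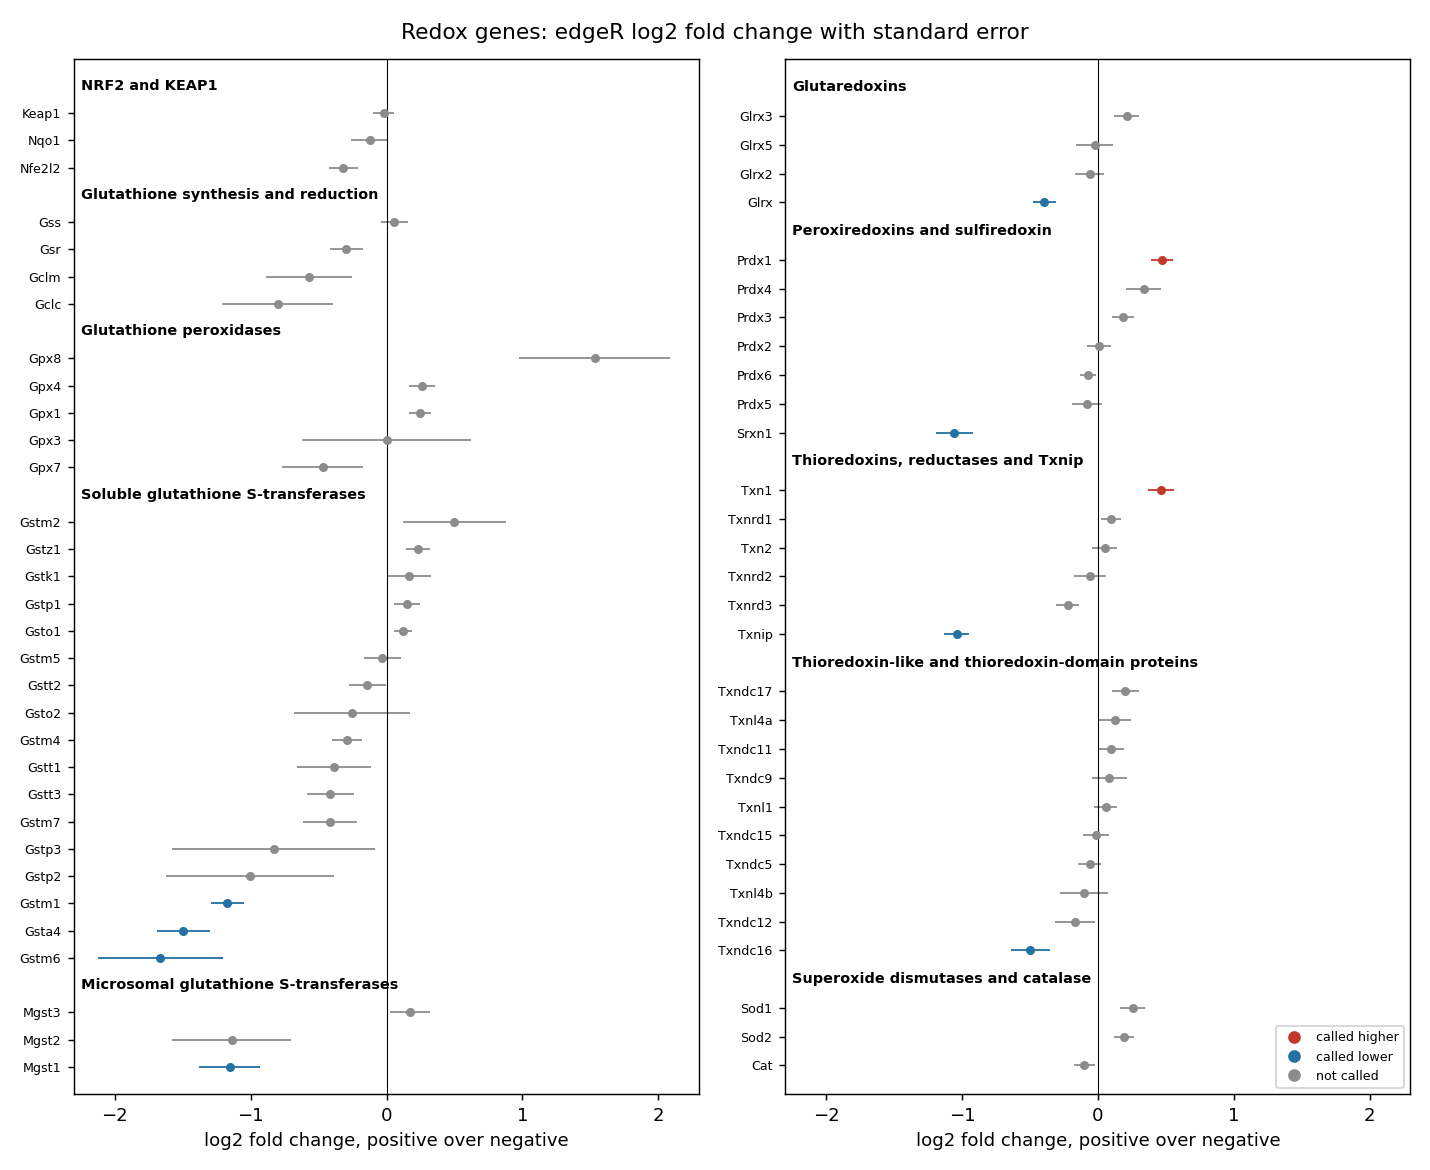
Log2 fold change (positive over negative, x axis) of the 62 tested redox genes, ordered by role on the y axis, with bars of 1 standard error from the edgeR fit and colour for the call. Most points lie within 0.5 of 0, and the called lower genes Txnip, Srxn1, Gstm1, Mgst1, Gsta4 and Gstm6 lie beyond -1.

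The libraries of both groups carry the same numbers in the labels, and same-numbered libraries deviated together, so the fit was repeated with that number as a block. It called 20 of the 62 members (32.3%), against 31.4% of all tested genes. All 10 genes of the unblocked fit were among them. The 10 further genes were Nfe2l2, Gclc, Gclm and Gsr on the lower side and Gpx1, Gpx4, Glrx3, Prdx4, Sod1 and Sod2 on the higher side. For these the blocked value is given beside the unblocked one. Calls given without mention of the block, those of the neighbouring lists included, do not use the numbers.

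Txnip, the arrestin-like protein that binds and inhibits thioredoxin, had the lowest adjusted p of the members and, in negative libraries, the most transcript per length. It was at 1080, 1157 and 1258 CPM in the negative libraries (replicates 1, 2 and 3, the order kept throughout) and at 572, 620 and 507 CPM in the positive ones. The groups lay far apart relative to their own spread. The level was 2.06-fold lower in positive cells, a log2 fold change of -1.04 (SE 0.09, edgeR adjusted p = 0.000659). The gene (ENSMUSG00000038393) lies at chr3:96465273-96469199 on the plus strand of GRCm39. Txnip is known as a target of the glucose-sensing factors ChREBP and MondoA, which bind paired E-box-like letters. The 250 bases before its RefSeq start in GRCm38.p6 hold a form of such a pair, the letters CACGNG repeated after a gap of 5 bases. Searched on both strands, this form is found before 0.0457% of all 32851 RefSeq starts. Forms of the pair with other letters were not searched, so the share does not measure how rare such pairs are. Of the 59 members with a promoter in the table, Txnip alone had the searched form. It is shown because Txnip had the lowest adjusted p of the members. The 47 bases at chr3:96557857-96557903 (plus strand) carry the match in capitals, beginning 85 bases before the start.
Txnip: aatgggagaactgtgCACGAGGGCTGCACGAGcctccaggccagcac
The match is a description of these letters, and binding was not measured.

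Thioredoxin itself moved the other way. Txn1, the cytosolic thioredoxin (ENSMUSG00000028367, chr4:57943373-57956411, minus strand, GRCm39), measured 236, 264 and 221 CPM in negative and 299, 342 and 354 CPM in positive libraries. Every positive library was above every negative one. The level was 1.38-fold higher (log2 fold change 0.46, SE 0.09, edgeR adjusted p = 0.0114). This call was narrowly lost without positive replicate 3 (edgeR adjusted p = 0.0506). The mitochondrial thioredoxin gene Txn2 had a log2 fold change of 0.05 (SE 0.09). Txnrd1, the selenoenzyme that reduces cytosolic thioredoxin, measured 313, 351 and 321 CPM in negative and 363, 362 and 328 CPM in positive libraries, with overlap between the groups. A log2 fold change of 0.10 (SE 0.08) was not called (edgeR adjusted p = 0.396). The mitochondrial reductase gene Txnrd2 stood at -0.06 (SE 0.12), and Txnrd3, a reductase best known from testis, at -0.22 (SE 0.08, edgeR adjusted p = 0.0958). The inhibitor was thus lower and the thioredoxin gene higher, while no reductase gene passed the test.

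Among the peroxiredoxins, which break down hydrogen peroxide, mostly with electrons from thioredoxin, only Prdx1 of 6 was called. The enzyme that repairs some of them was lower. Prdx1 (ENSMUSG00000028691, chr4:116542741-116558019, plus strand, GRCm39) measured 572, 629 and 549 CPM in negative and 739, 863 and 829 CPM in positive libraries. It was 1.39-fold higher, with no overlap of the groups (log2 fold change 0.47, SE 0.08, edgeR adjusted p = 0.00570). Srxn1, sulfiredoxin, which restores peroxiredoxins whose catalytic cysteine has been over-oxidised, measured 45.0, 49.8 and 57.4 CPM in negative and 24.5, 27.0 and 21.6 CPM in positive libraries. It was 2.08-fold lower (log2 fold change -1.06, SE 0.14, edgeR adjusted p = 0.00178), and the highest positive library stayed well below the lowest negative one. Prdx4, the peroxiredoxin of the endoplasmic reticulum, measured 108, 126 and 97.4 CPM in negative and 119, 145 and 155 CPM in positive libraries. These ranges overlap, but within each number the positive library was the higher one, by ratios of 1.10, 1.15 and 1.59. The log2 fold change of 0.34 (SE 0.13, edgeR adjusted p = 0.0965) passed with the replicate block (0.34, SE 0.11, edgeR adjusted p = 0.0438). It also passed when negative replicate 2 was left out (0.45, edgeR adjusted p = 0.0441). Prdx2, Prdx3, Prdx5 and Prdx6 had log2 fold changes between -0.08 and 0.19, none past the threshold.

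**Figure D2:**
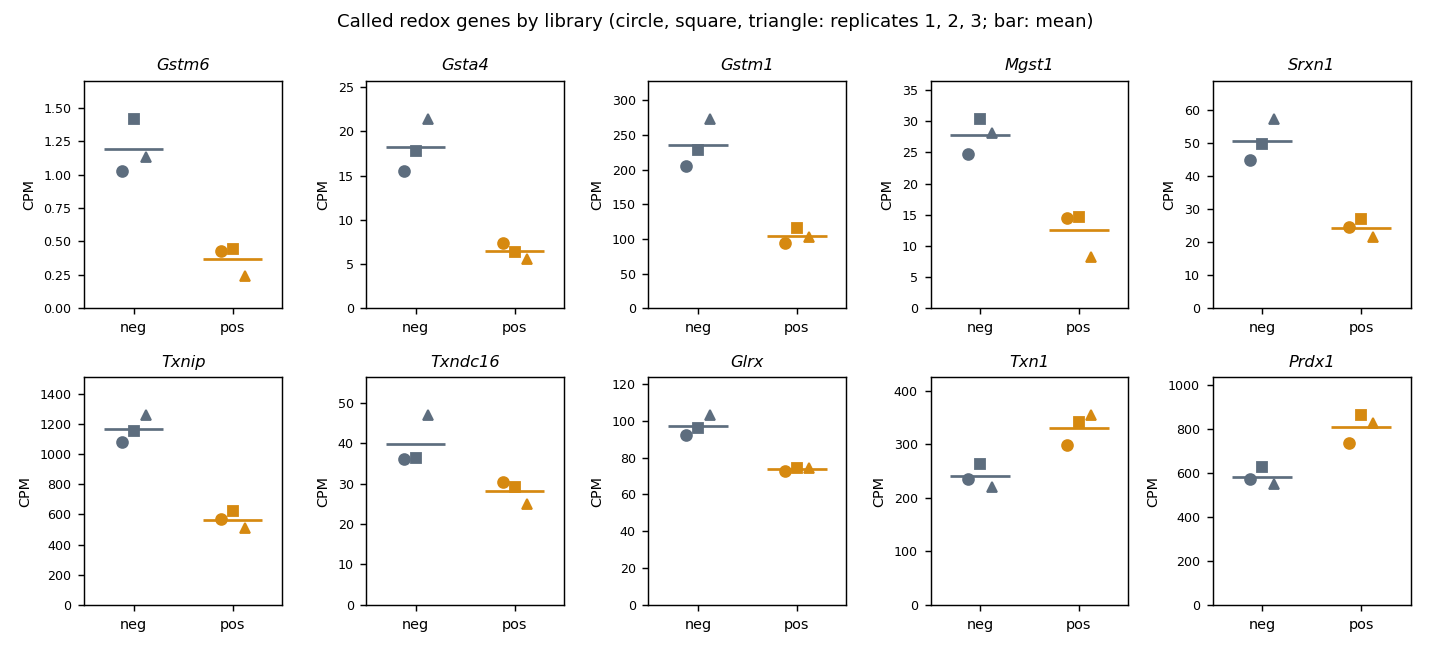
CPM (y axis, from 0) in each of the 3 negative and 3 positive libraries for the 10 called redox genes, with symbols for the replicate number and a bar for the group mean. The 2 groups do not overlap for any of the 10, and Txn1 and Prdx1 are the panels where the positive libraries are the higher ones.

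Glutathione S-transferases, which couple glutathione to electrophiles, included the largest falls among the members, with 3 of 17 tested soluble enzymes called lower and none higher. These 3 are 17.6% of the 17, against 20.5% of all tested genes called in either direction and 10.9% called lower. DESeq2 called 2 of the 17. Gstm1, a mu class transferase (ENSMUSG00000058135, chr3:107919571-107925289, minus strand, GRCm39), measured 206, 228 and 273 CPM in negative and 94.4, 116 and 104 CPM in positive libraries. It was 2.25-fold lower (log2 fold change -1.17, SE 0.12, edgeR adjusted p = 0.000862). Gsta4, an alpha class enzyme known for conjugating aldehydes from oxidised lipids (ENSMUSG00000032348, chr9:78090056-78116631, plus strand, GRCm39), measured 15.5, 17.8 and 21.4 CPM in negative and 7.45, 6.34 and 5.63 CPM in positive libraries. The level was 2.82-fold lower, again without overlap (log2 fold change -1.49, SE 0.19, edgeR adjusted p = 0.00178). Gstm6 was near the floor of detection, with 21, 27 and 22 counts in negative and 8, 8 and 5 counts in positive libraries. Its log2 fold change of -1.66 (SE 0.46, edgeR adjusted p = 0.0364) lost its call when any 1 of the 6 libraries was left out (edgeR adjusted p up to 0.134). DESeq2 did not call it either (adjusted p = 0.0939), nor did edgeR once the filter on low counts was dropped (adjusted p = 0.0729).

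The mu class genes lie side by side on chromosome 3. In the order of GRCm39 positions from 107803137 to 107952210, a span of 149 kb, these are Gstm5, Gstm7, Gstm6, Gstm3, Gstm2, Gstm1 and Gstm4. Of the 6 tested, Gstm1 and Gstm6 were called lower. Gstm5, the next most abundant of them, measured 75.0, 69.5 and 55.3 CPM in negative and 62.8, 73.5 and 59.5 CPM in positive libraries, a log2 fold change of -0.03 (SE 0.13). Gstm2 had 0.50 (SE 0.38), Gstm4 -0.29 (SE 0.11) and Gstm7 -0.41 (SE 0.20), and none of these passed. These genes are close in sequence and how the authors' counting treated shared reads is not given in the sources used here, so the split between them is uncertain, as it is within the Gstt genes of chromosome 10 and the Gstp genes of chromosome 19. None of the 3 tested Gstt, 3 Gstp and 2 Gsto genes was called. Gstp1, the pi class enzyme with most transcript, measured 125, 132 and 115 CPM in negative and 126, 153 and 133 CPM in positive libraries.

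Of the 3 membrane-bound transferases 1 was lower (33.3%, against 10.9% of all tested genes called lower). Mgst1, which protects membranes of the endoplasmic reticulum and mitochondria from lipid peroxides (ENSMUSG00000008540, chr6:138117314-138133753, plus strand, GRCm39), measured 24.8, 30.3 and 28.1 CPM in negative and 14.5, 14.7 and 8.27 CPM in positive libraries. Positive replicate 3 was the lowest library, and the groups did not overlap. The level was 2.22-fold lower (log2 fold change -1.15, SE 0.22, edgeR adjusted p = 0.00946). Mgst2 had 79, 58 and 48 counts in negative and 14, 40 and 26 in positive libraries (log2 fold change -1.14, SE 0.44, edgeR adjusted p = 0.0965). Mgst3, the member of this group with most transcript per length, measured 17.97, 15.7 and 18.7 CPM in negative and 18.6, 18.5 and 21.9 CPM in positive libraries, a log2 fold change of 0.17 (SE 0.15).

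Glutaredoxins reduce proteins that carry a bound glutathione, or help to build iron-sulfur clusters. Glrx, the cytosolic enzyme (ENSMUSG00000021591, chr13:75987987-75998273, plus strand, GRCm39), measured 92.1, 96.2 and 103 CPM in negative and 72.8, 74.4 and 74.4 CPM in positive libraries, which lie very close together. It was 1.31-fold lower (log2 fold change -0.39, SE 0.08, edgeR adjusted p = 0.0146). Its call was lost without positive replicate 1 (edgeR adjusted p = 0.0551) or positive replicate 3 (edgeR adjusted p = 0.0569). Glrx3, which works in iron trafficking, measured 169, 184 and 158 CPM in negative and 186, 218 and 188 CPM in positive libraries. Its log2 fold change of 0.21 (SE 0.09, edgeR adjusted p = 0.142) passed with the replicate block (0.21, SE 0.06, edgeR adjusted p = 0.0333). The mitochondrial glutaredoxin genes Glrx2 and Glrx5 had -0.06 (SE 0.11) and -0.02 (SE 0.14).

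Among the genes for making and recycling glutathione, 0 of 4 were called in edgeR (1 at an unadjusted p below 0.05, 0 by DESeq2 and 0 by limma-voom). With the replicate block 3 of 4 were lower. Over all tested genes the shares called in either direction were 20.5% without and 31.4% with the block. Gclc, the catalytic subunit of the rate-limiting ligase (ENSMUSG00000032350, chr9:77661817-77701767, plus strand, GRCm39), measured 91.7, 30.03 and 52.2 CPM in the negative and 46.3, 18.7 and 34.7 CPM in the positive libraries. The groups overlap, and libraries of 1 group differed up to 3.06-fold, but the order of the numbers was shared: replicate 1 was highest and replicate 2 lowest in both groups. Within a number the positive library had 0.505, 0.624 and 0.665 times the negative level. The log2 fold change was -0.80 (SE 0.41, edgeR adjusted p = 0.197) without and -0.76 (SE 0.11, edgeR adjusted p = 0.00195) with the block.

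Gclm, the modifier subunit of the same ligase (ENSMUSG00000028124, chr3:122039206-122064381, plus strand, GRCm39), measured 205, 88.2 and 143 CPM in negative and 113, 61.1 and 120 CPM in positive libraries. Replicate 2 was again the lowest library in both groups, and the ratios within a number were 0.549, 0.692 and 0.840. The log2 fold change of Gclm was -0.57 (SE 0.32, edgeR adjusted p = 0.235) without and -0.55 (SE 0.11, edgeR adjusted p = 0.00780) with the block. Gsr, which returns oxidised glutathione to its reduced form, measured 117, 97.1 and 89.9 CPM in negative and 87.7, 74.7 and 85.6 CPM in positive libraries, just short of overlapping. Without the block its log2 fold change was -0.29 (SE 0.12, edgeR adjusted p = 0.114), and with it -0.29 (SE 0.09, edgeR adjusted p = 0.0398). Gss, the synthetase of the second step, stayed within 42.6 to 49.8 CPM over all 6 libraries, with a log2 fold change of 0.06 (SE 0.10) that became -0.02 with no composition factor.

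**Figure D3:**
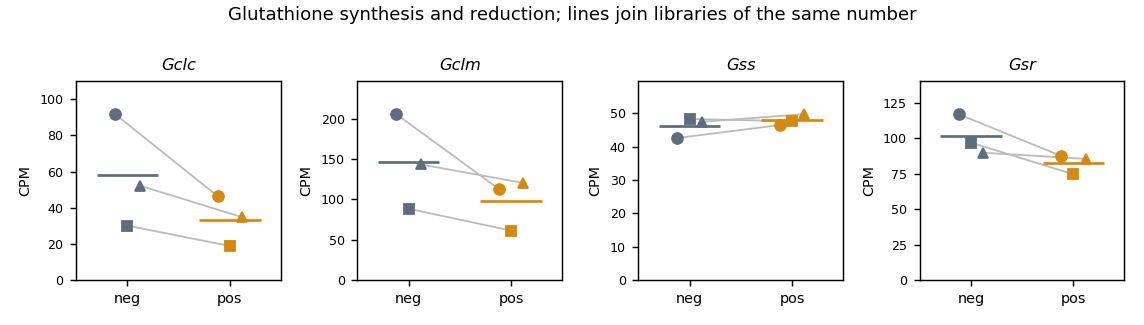
CPM (y axis, from 0) of Gclc, Gclm, Gss and Gsr in each library, with grey lines joining the negative and the positive library of the same number and bars for group means. All lines of Gclc, Gclm and Gsr slope down, and for Gclc and Gclm the distance between numbers is as large as that between groups.

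Among members with a mean of at least 10 CPM, this spread between libraries was largest for the ligase genes. Over the 52 members with a mean of at least 10 CPM, the coefficient of variation within a group (SD over mean, averaged over the 2 groups) had a median of 8.64%. Gclc had the highest with 47.8% and Gclm the next with 36.6%, followed by Gstt1, a theta class transferase, with 29.4%. Wide spreads also occurred below that mean. Gstm2, with 90 to 269 counts, had 59.8% in negative and 21.4% in positive libraries. These are descriptions of 3 libraries per group, and what the library numbers stand for is not given by the labels.

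The glutathione peroxidases, which use glutathione to reduce peroxides, had 0 of 5 tested genes called in edgeR (3 at an unadjusted p below 0.05, 1 by DESeq2 and 0 by limma-voom). Gpx1, the selenoenzyme of the cytosol, measured 293, 320 and 277 CPM in negative and 327, 361 and 366 CPM in positive libraries. The groups did not overlap. The log2 fold change was 0.24 (SE 0.08, edgeR adjusted p = 0.0627). Gpx1 passed with the replicate block (0.24, SE 0.07, edgeR adjusted p = 0.0247), by DESeq2 (0.25, adjusted p = 0.0487), and when negative replicate 2 was left out (0.31, edgeR adjusted p = 0.0351). Gpx4, which reduces lipid peroxides in membranes and guards against ferroptosis, measured 200, 232 and 203 CPM in negative and 235, 283 and 243 CPM in positive libraries. A log2 fold change of 0.26 (SE 0.10, edgeR adjusted p = 0.0850) passed with the block (0.26, SE 0.06, edgeR adjusted p = 0.0102), as it did when negative replicate 2 was left out (0.34, edgeR adjusted p = 0.0437). Gpx7, at a mean of 6.44 FPKM, had a log2 fold change of -0.47 (SE 0.30, edgeR adjusted p = 0.292). Gpx3 and Gpx8 were scarce, at 0.76 and 0.79 FPKM. Gpx8, named here after its values were seen, had the highest log2 fold change of all members. It was 1.53 (SE 0.56, edgeR adjusted p = 0.0836), from 4, 11 and 10 counts in negative and 24, 13 and 35 counts in positive libraries.

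Superoxide dismutases turn superoxide into hydrogen peroxide and catalase breaks that down. None of these 3 genes was called in edgeR (2 at an unadjusted p below 0.05, 0 by DESeq2 and 0 by limma-voom). Sod1, the cytosolic enzyme, measured 57.6, 59.0 and 52.9 CPM in negative and 64.0, 70.9 and 67.8 CPM in positive libraries. Sod2, the mitochondrial one, measured 139, 140 and 129 CPM in negative and 161, 156 and 150 CPM in positive libraries. Neither gene's groups overlapped, by a small margin in each case. The log2 fold changes were 0.26 for Sod1 (SE 0.09, edgeR adjusted p = 0.0789) and 0.19 for Sod2 (SE 0.08, edgeR adjusted p = 0.110), and with the replicate block both passed (edgeR adjusted p = 0.0499 and 0.0473). Cat measured 262, 265 and 273 CPM in negative and 251, 267 and 229 CPM in positive libraries, a log2 fold change of -0.10 (SE 0.08).

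The NRF2 regulators showed 0 of 3 calls in edgeR (1 at an unadjusted p below 0.05, 1 by DESeq2 and 0 by limma-voom). Nfe2l2 measured 160, 164 and 183 CPM in negative and 135, 154 and 118 CPM in positive libraries, with no overlap. The log2 fold change of -0.32 (SE 0.11) missed the threshold (edgeR adjusted p = 0.0684). It passed with the replicate block (-0.32, SE 0.10, edgeR adjusted p = 0.0407) and by DESeq2 (-0.31, adjusted p = 0.0454). So it did with no composition factor (-0.39, edgeR adjusted p = 0.0356) and when positive replicate 2 was left out (-0.41, edgeR adjusted p = 0.0478). Keap1, the adaptor that marks NRF2 for destruction, measured 139, 143 and 145 CPM in negative and 133, 145 and 143 CPM in positive libraries, a log2 fold change of -0.02 (SE 0.08). Nqo1, a quinone reductase and textbook NRF2 target, measured 26.3, 21.4 and 24.2 CPM in negative and 20.6, 23.2 and 22.0 CPM in positive libraries, a log2 fold change of -0.12 (SE 0.13).

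The antioxidant response element, which NRF2 binds, has the core letters TGACNNNGC, searched here on both strands of the 250 bases before each RefSeq start in GRCm38.p6. The table held 59 of the 66 members, and the others were Gclc, Gsr, Gsta4, Gstt2, Prdx6, Txnl1 and Txnl4a. The core was found before a start of 12 of the 59 members, and before 11.5% of the 27025 genes in the table. It was found for 1 of the 2 higher members (Prdx1), 1 of the 7 lower members in the table (Mgst1) and 8 of the 46 that were tested and not called. The matches of both called members and of 4 uncalled ones, Gclm, Nfe2l2, Txnrd1 and Sod1, are shown with the core in capitals. The mu class genes Gstm5 and Gstm7 also held the core and are not shown. The letters in Gclm, Prdx1, Mgst1, Txnrd1 and Sod1 match on the strand opposite to the gene and are printed on the gene's strand.
Prdx1: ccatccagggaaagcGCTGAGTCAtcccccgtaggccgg
Mgst1: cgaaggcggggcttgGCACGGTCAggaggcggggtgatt
Gclm: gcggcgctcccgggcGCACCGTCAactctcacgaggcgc
Nfe2l2: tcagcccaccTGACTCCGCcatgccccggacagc
Txnrd1: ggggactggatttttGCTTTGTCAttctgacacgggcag
Sod1: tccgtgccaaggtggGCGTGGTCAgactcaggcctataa
The stretches lie at chr4:116685451-116685489 for Prdx1, chr6:138140456-138140494 for Mgst1, chr3:122245408-122245446 for Gclm, chr2:75704880-75704913 on the minus strand for Nfe2l2, chr10:82859099-82859137 for Txnrd1 and chr16:90220691-90220729 for Sod1, on the plus strand unless stated. The core begins 133 bases before the start in Prdx1 and 56 bases before it in Mgst1. The Prdx1 match also contains the AP-1 letters TGANTCA, which occur before 6.75% of all starts. Other members' windows not holding the core says only that these letters are not within 250 bases.

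The thioredoxin-like and thioredoxin-domain proteins had 1 call among 10 tested (10%, against 20.5% of all tested genes). Txndc16, a thioredoxin-domain protein of the endoplasmic reticulum, measured 36.2, 36.4 and 46.9 CPM in negative and 30.5, 29.3 and 25.0 CPM in positive libraries. It was 1.41-fold lower (log2 fold change -0.50, SE 0.14, edgeR adjusted p = 0.0420), a call that was lost without any single library except negative replicate 2 (edgeR adjusted p up to 0.139) and with no filter on low counts (edgeR adjusted p = 0.0509). Txndc5, a disulfide isomerase of the endoplasmic reticulum and the most abundant of this group per length, measured 228, 243 and 267 CPM in negative and 232, 225 and 251 CPM in positive libraries. The log2 fold changes of the 10 tested genes ran from -0.50 to 0.20, the narrowest range of any role with more than 5 tested members.

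Levels between genes were compared on the deposited FPKM, which divide by gene length. Of the 66 members 10 averaged at least 100 FPKM over the 6 libraries, 41 at least 10 FPKM, and 10 less than 1 FPKM. In negative libraries the order was led by Txnip with 369 ± 28.9 FPKM (SD, n = 3), then Txn1 with 227 ± 21.6 FPKM and Gpx1 with 204 ± 16.1 FPKM (SD, n = 3 each). In positive libraries Txn1 stood first with 315 ± 28.2 FPKM, then Prdx1 with 266 ± 20.5 FPKM and Gpx1 with 243 ± 14.8 FPKM, and Txnip had 181 ± 17.0 FPKM (SD, n = 3 each). In the positive group the neighbours Prdx1 and Gpx1 lie within about their spread of each other, as do Txn1, Gpx1 and Prdx1 (190 ± 14.4 FPKM, SD, n = 3) in the negative group. Gstm1 had 158 ± 23.2 FPKM in negative and 70.9 ± 7.02 FPKM in positive libraries (SD, n = 3 each). Its level was beside that of Prdx6 (155 ± 4.76 FPKM, SD, n = 3) in the negative group and below that of Gstp1 (88.6 ± 8.56 FPKM, SD, n = 3) in the positive group.

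**Figure D4:**
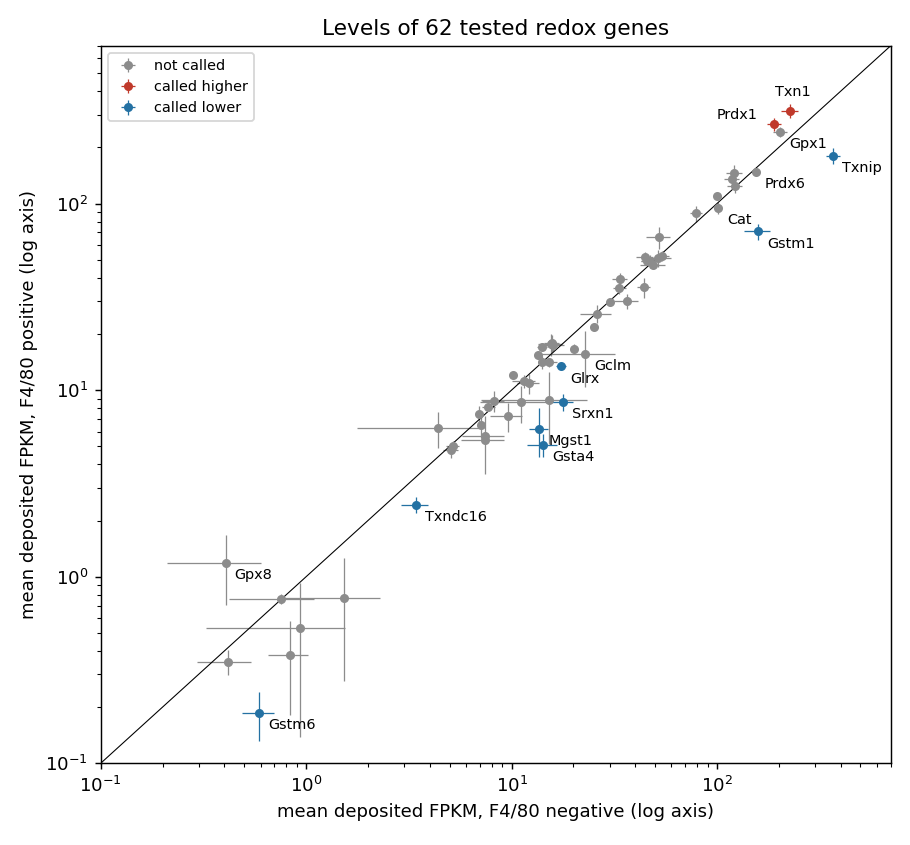
Mean deposited FPKM of the 62 tested redox genes in negative (x axis) and positive libraries (y axis), both on log axes, with bars of 1 SD over 3 libraries and a line of equal level. The abundant genes Txnip (369 against 181 FPKM) and Gstm1 (158 against 70.9 FPKM) lie below the line and Txn1 and Prdx1 above it.

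Around these systems, 6 further lists of genes that are not members were read from the same fit. These lists, too, were chosen with earlier results of these data known. Of their 99 tested genes 25 were called (25.3%, against the background of 20.5%), 14 higher and 11 lower, and 7 kept their call when each library was left out in turn. Those 7 were Me2, Idh2, Mthfd2, Hmox1, Blvra, Osgin1 and Sesn1. Of 16 tested genes in the list for NADPH supply, 3 were higher and 3 lower. The 3 called higher without the replicate block are mitochondrial. Mthfd2, a folate enzyme, rose from 21.2, 19.8 and 13.3 CPM to 38.3, 44.9 and 37.8 CPM (log2 fold change 1.15, edgeR adjusted p = 0.00417). The malic enzyme gene Me2 had 0.69 (edgeR adjusted p = 0.00242) and the isocitrate dehydrogenase gene Idh2 0.43 (edgeR adjusted p = 0.00847). G6pdx, which feeds the cytosolic pentose phosphate supply, had -0.02 and was not called. Tkt, Pgls and Taldo1, further pentose phosphate genes, were not called in this fit either (edgeR adjusted p = 0.0587, 0.0647 and 0.209). With the replicate block they were called higher, at 0.26, 0.32 and 0.22 (edgeR adjusted p = 0.0104, 0.0263 and 0.0409), while G6pdx and Pgd were not. Whether each enzyme of this list makes NADPH or NADH in these cells was not tested.

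The lower genes of the NADPH list were less steady when single libraries were left out of the unblocked fit. Me1, the cytosolic malic enzyme, measured 3.71, 3.46 and 13.4 CPM in negative and 1.87, 1.45 and 1.71 CPM in positive libraries, and its call was lost without negative replicate 3 or any positive library, and with limma-voom. Nadk2, the mitochondrial NAD kinase, measured 176, 75.4 and 125 CPM in negative and 69.3, 55.6 and 74.8 CPM in positive libraries. H6pd, a pentose phosphate enzyme of the endoplasmic reticulum, measured 106, 63.9 and 101 CPM in negative and 65.7, 41.5 and 55.5 CPM in positive libraries. In both genes replicate 2 was the lowest library of each group, as for Gclc and Gclm. Both calls were lost without any single library except negative replicate 2 and with limma-voom. With the replicate block H6pd (-0.73, edgeR adjusted p = 0.00078), Nadk2 (-0.85, edgeR adjusted p = 0.0047) and Me1 (-1.77, edgeR adjusted p = 0.0144) were called lower.

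Of 21 tested NRF2 regulators and further NRF2-linked genes 3 were higher and 3 lower. Hmox1, heme oxygenase, also a macrophage gene of heme recycling, measured 15.9, 19.7 and 17.3 CPM in negative and 129, 173 and 125 CPM in positive libraries. Blvra, biliverdin reductase, acts in the step after it and had a log2 fold change of 0.47 (edgeR adjusted p = 0.00904). Osgin1, an NRF2-responsive growth inhibitor gene, went the other way, from 18.5, 28.6 and 53.8 CPM in negative to 7.12, 8.40 and 5.77 CPM in positive libraries (log2 fold change -2.24, edgeR adjusted p = 0.00451). Maff, a small partner of NRF2, had -1.79 (edgeR adjusted p = 0.0175; leaving out negative replicate 3, positive replicate 1 or 2 removed the call), and Sqstm1, the autophagy receptor that sequesters KEAP1, had -0.44 (edgeR adjusted p = 0.0166, lost without positive replicate 1 or 3). Rbx1, a subunit of the ubiquitin ligase that KEAP1 serves, had 0.31 (edgeR adjusted p = 0.0357, lost without any single library except negative replicate 2 and with no composition factor).

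**Figure D5:**
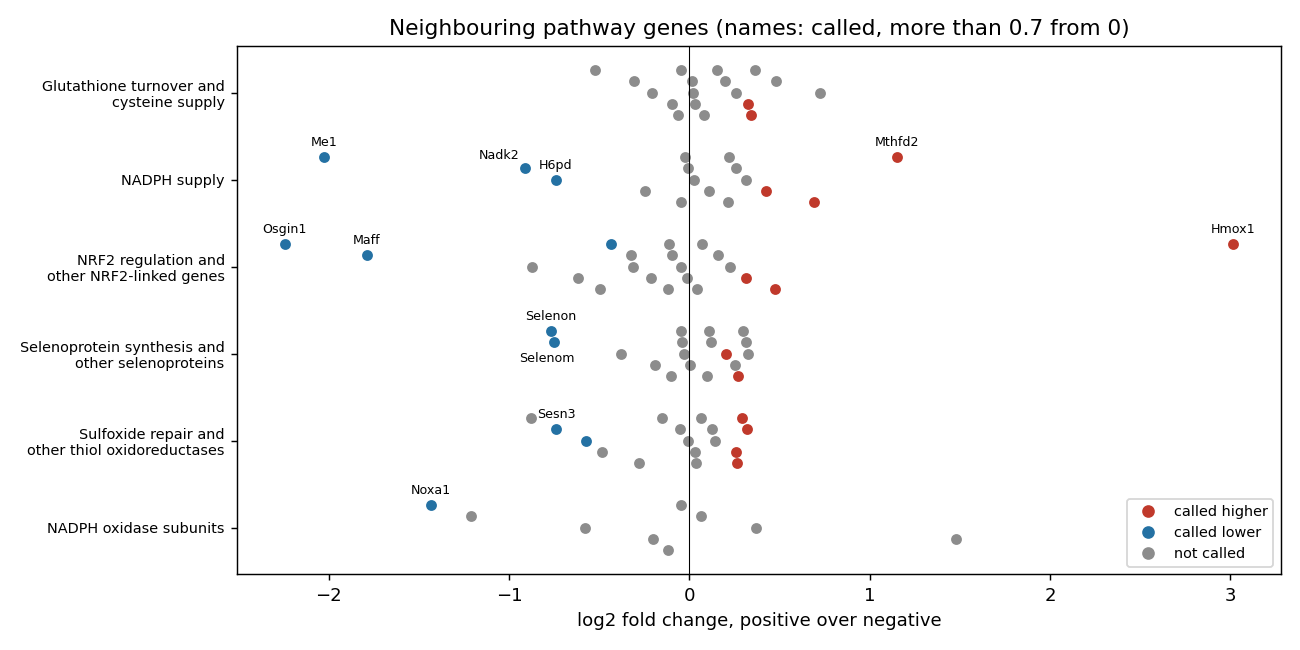
Log2 fold change (positive over negative, x axis) of the tested genes of the 6 neighbouring lists (y axis, vertical scatter has no meaning), coloured by call and named where called and more than 0.7 from 0. Hmox1 at 3.02 and Mthfd2 at 1.15 stand on the higher side and Osgin1 at -2.24 and Me1 at -2.03 on the lower side.

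Of 18 tested genes of glutathione turnover and cysteine supply 2 were higher and 0 lower (0 lower also at an unadjusted p below 0.05, by DESeq2 and by limma-voom): Slc3a2, a subunit shared by several amino acid exchangers, with a log2 fold change of 0.33 (edgeR adjusted p = 0.0150, lost without positive replicate 2 or 3), and the glutamine carrier gene Slc1a5 with 0.34 (edgeR adjusted p = 0.0414, lost without negative replicate 2 or 3, positive replicate 1 or 3, and with no composition factor). Slc7a11, the cystine importer, stayed at or below 1.03 CPM in all 6 libraries. Of 17 tested thiol oxidoreductases and sulfoxide repair genes 4 were higher (Pdia3, Pdia6, P4hb and Park7, with log2 fold changes of 0.26 to 0.32) and 2 lower (Sesn1 with -0.57, edgeR adjusted p = 0.00287, and Sesn3 with -0.74, edgeR adjusted p = 0.0393). The sestrins Sesn1 and Sesn3 are stress-responsive regulators of nutrient signalling. Apart from Sesn1, each of these lost its call when at least 1 library was left out, and all of the higher ones but Pdia6 with no composition factor.

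Of 18 tested genes of selenoprotein synthesis and other selenoproteins, Eefsec, the elongation factor for selenocysteine, and Selenof were higher and Selenom and Selenon lower. Their log2 fold changes were 0.27, 0.20, -0.75 and -0.77, and both higher calls were lost when any 1 library was left out. The lower calls were lost without any single library except negative replicate 2 for Selenom, which limma-voom did not call, and without negative replicate 1 or 3 or positive replicate 1 or 3 for Selenon. Of 9 tested NADPH oxidase subunit genes, which make superoxide, 1 was lower, the activator gene Noxa1 (log2 fold change -1.43, edgeR adjusted p = 0.0287, lost without negative replicate 2 or 3 and positive replicate 1 or 2), and 0 were higher (1 at an unadjusted p below 0.05, 0 by DESeq2 and 1 by limma-voom). Cybb, the catalytic subunit of phagocytes, measured 5.03, 7.76 and 1.08 CPM in negative and 16.2, 13.2 and 9.40 CPM in positive libraries, without overlap. The edgeR test did not call it (log2 fold change 1.48, adjusted p = 0.0858), and the fit with the replicate block did (1.72, edgeR adjusted p = 0.0109).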

How the data were processed

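RNA was extracted from sorted cells with a micro-scale column kit and made into libraries with a SMARTer kit, per the labels' protocols. HISAT2 2.0.5, DESeq2 and GRCm39 appear, without roles, in the submitters' processing notes. Which counter and annotation made the counts, and whether strand was used, is not given in the sources used here, so overlapping and antisense genes and paralogs or pseudogene copies are uncertain in their reads. The authors deposited 1 table with raw counts per gene, a normalized signal (the count divided by 1 factor per library) and FPKM. It also holds the authors' group means of that signal, log2 fold changes and p-values of the authors' own comparison. At an adjusted p under 0.05, the authors' deposited table has 2 of the 66 members higher and 8 lower, and 1697 higher and 1921 lower of all 23413 genes. Its members differ from those called here in including Nfe2l2 (adjusted p = 0.0476) and not Gstm6 (adjusted p = 0.0982). Counts were the values tested, and FPKM served only for levels between genes.

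Counts were fitted over the whole table in R 4.3.3 with edgeR 4.0.16 (filterByExpr, minimum count 10, minimum total 15, TMM factors, quasi-likelihood test without covariates). CPM use TMM-scaled library sizes, and 3 counts correspond to 0.146 to 0.167 CPM, which covers counting error only. The step was tested on simulated data. Alternatives were DESeq2 1.42.0, limma-voom (limma 3.58.1), other size factors and filters, a replicate block and leaving out each library. Deviations from group means correlated by 0.214 to 0.284 between same-numbered libraries, above the limit of 0.1. The numbers were therefore taken to pair the libraries in the fit with the replicate block. Unless the block is named, calls, shares and the fits that left out 1 library do not use this pairing. Between libraries of different numbers the correlations were -0.20 to -0.07. Deviations from a group's mean cancel within the group, so these lower values add no separate support for the pairing. Whether the libraries stem from different animals is not labelled, and p-values thus cover the spread among these libraries, which may be technical. Within a group, libraries differed beyond counting noise (chi-square per degree of freedom 11.0 to 22.9). The named genes are every called member, the most abundant tested member of each role by FPKM, a fixed list of core genes, members whose call the block changes, and up to 6 called genes of each other list. The members, lists and role groups were chosen with earlier results of these data known. Promoter sequences are from RefSeq (GRCm38.p6), gene positions from the table (GRCm39).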

Additional observations from a re-analysis of the deposited data

How the results depend on the processing

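Of the 10 called redox genes, 6 kept their call under all 13 alternatives (Txnip, Gstm1, Gsta4, Mgst1, Srxn1 and Prdx1); where the calls of the other 4 were lost is given beside them. Leaving out 1 library at a time gave 1 to 5 higher and 5 to 7 lower members. The 5 higher came without negative replicate 2 and the 1 higher without positive replicate 3, and 5 lower without positive replicate 1 or 3. Over all tested genes the same fits called 656 to 1437 higher and 802 to 1612 lower. Without negative replicate 3 these counts were 750 and 812, without positive replicate 1 they were 824 and 841, without positive replicate 2 they were 723 and 907, and without positive replicate 3 they were 656 and 802. The replicate block called 2105 genes higher and 2429 lower over all genes, and 8 members higher. It turned 10 uncalled members into calls and removed none.

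Over the 27 named members, 3 uncalled genes reversed direction under an alternative (Gstm6 did not pass the strict filter on low counts and has no value there). Keap1 ranged from -0.045 to 0.021 (without positive replicate 1) and Txndc5 from -0.11 to 0.0053 (without negative replicate 3) when 1 library was left out, and Gss was at -0.019 with no composition factor. Among genes not named for these runs, the replicate block turned uncalled Gpx3 from near 0 to 0.08 and the uncalled neutrophil gene Ctsg from -0.48 to 0.08. Scaling with no composition factor moved the median log2 fold change of all genes from -0.03 to -0.10.

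Counts in the neighbouring lists are small and moved more, and the cause was not tested. With no composition factor, glutathione turnover had 1 higher, NRF2-linked genes 5 lower, selenoproteins 0 higher, and thiol oxidoreductases 1 higher and 4 lower. With DESeq2, NADPH supply had 5 higher, selenoproteins 4 higher, thiol oxidoreductases 4 lower and erythroid genes 1 higher. With limma-voom, NADPH supply had 0 lower, selenoproteins 1 lower and NADPH oxidase subunits 1 higher. With no filter on low counts selenoproteins had 0 higher. With the replicate block, NADPH supply had 6 higher, NRF2-linked genes 5 lower, selenoproteins 4 higher, thiol oxidoreductases 5 lower, NADPH oxidase subunits 1 higher, erythroid genes 1 higher and 2 lower, mast cell genes 5 higher and B cell genes 4 lower.

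Leaving out 1 library at a time gave 0 to 2 higher genes of glutathione turnover, 0 to 3 lower of NADPH supply and 1 to 3 lower of the NRF2-linked genes. It gave 0 to 1 higher and 0 to 2 lower selenoproteins, 0 to 4 higher and 1 to 3 lower thiol oxidoreductases, and 0 to 1 NADPH oxidase subunits in each direction. Erythroid and neutrophil genes had 0 to 2 in each direction, mast cell genes 1 to 3 higher and B cell genes 0 to 1 lower.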

Other observations

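Markers of 4 further blood cell types were read from the same fit. Of 5 tested mast cell and basophil genes 3 were higher in F4/80 positive cells and 0 lower, with Cpa3, a mast cell protease, at a log2 fold change of 1.47 (edgeR adjusted p = 0.00224). Their summed level was 650 to 717 CPM in positive and 517 to 577 CPM in negative libraries. The calls of Fcer1a and Ms4a2 were kept in 2 and 4 of the 6 fits that left out 1 library, and limma-voom did not call Fcer1a. Of 10 tested erythroid genes 0 were higher and 1 lower, the beta globin gene Hbb-bt (log2 fold change -0.88, edgeR adjusted p = 0.0158, lost without positive replicate 2). Of 9 tested neutrophil genes 0 were higher and 1 lower, the granule protease gene Prtn3 (log2 fold change -0.73, edgeR adjusted p = 0.0134, lost without negative replicate 3 or positive replicate 1). Of 7 tested B cell genes 0 were called by edgeR, 0 by DESeq2 and 0 by limma-voom, while 3 had an unadjusted p below 0.05, all lower.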
